A study of Mus musculus with 9 samples.

Results

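The let-7 family of guide strands was examined in 3 adipose depots of mice fed a high fat diet (HFD). Members were taken by name as the 5p strands let-7a, b, c, d, e, f, g and i together with miR-98-5p, which gave 9 of the 1251 mature miRNAs in the small RNA sequencing table. All 9 were above the lowest value of the table in enough libraries to be tested, against 343 miRNAs tested in all. The study sequenced small RNA from interscapular brown adipose tissue (BAT), inguinal subcutaneous adipose tissue (SAT) and epididymal visceral adipose tissue (VAT), with 3 libraries per depot. The mice were male C57BL/6J, aged 5 to 6 weeks at the start, and they were kept for 11 weeks on a diet that took 45% of its energy from fat, 20% from protein and 35% from carbohydrate, then fasted for 4 h. All 3 depots carried this diet and no low fat diet library was analysed here, so every comparison was between depots under HFD. Libraries are named by depot and the number in their label, namely BAT 12, 15 and 20, SAT 14, 19 and 20 and VAT 14, 17 and 20. Values are given below in that order.

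A mature miRNA guides the silencing complex to messenger RNAs mainly through its seed, the short stretch near its 5′ end, and miRNAs with the same seed are counted as one family because they can pair with largely the same targets. The let-7 family is known for rising during differentiation and staying abundant in adult tissues, for repressing growth regulators such as Ras, Hmga2 and Myc, and for lowering insulin signalling through members of the insulin and IGF pathway. Lin28 proteins block the maturation of many let-7 precursors by binding the loop of the hairpin, often at a GGAG motif.

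The mature sequences of all 9 members were looked up by name in the RefSeq annotation of build GRCm38.p6. They are shown because they differ by few bases while, as described below, their depot patterns differed widely. Bases 2 to 8, the seed, are in capitals.
let-7a-5p: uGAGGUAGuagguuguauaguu
let-7b-5p: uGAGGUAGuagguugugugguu
let-7c-5p: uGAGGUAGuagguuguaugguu
let-7d-5p: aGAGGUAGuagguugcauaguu
let-7e-5p: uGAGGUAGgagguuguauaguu
let-7f-5p: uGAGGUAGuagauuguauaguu
let-7g-5p: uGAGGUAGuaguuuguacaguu
let-7i-5p: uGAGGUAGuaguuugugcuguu
miR-98-5p: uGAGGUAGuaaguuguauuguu

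Every member was 22 bases long and carried the seed GAGGUAG. Counting positions from 1 at the 5′ end and giving the base of let-7a-5p first, let-7c-5p differed from let-7a-5p by A19G, let-7e-5p by U9G and let-7f-5p by G12A. Members with more changes were let-7b-5p with A17G and A19G, let-7d-5p with U1A and U16C, let-7g-5p with G12U and U18C, miR-98-5p with G11A and A19U, and let-7i-5p with G12U, A17G, U18C and A19U. Only A17G separated let-7b-5p from let-7c-5p. None of these changes fell in the seed. Of 1679 mature names in the annotation, 11 had this seed, and the other two, let-7k and miR-1961, were at the lowest value of the table in all 9 libraries. The study divided reads with several matches among them in proportion, which could not be checked from the table, so values of members that differ by a single base are uncertain to that extent.

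The 9 guide strands come from 12 hairpins in the annotation, and the reads of let-7a, let-7c and let-7f cannot be assigned to a hairpin because each has a pair of them. On chromosome 13 the minus strand holds Mirlet7a-1 (chr13:48538179-48538272), Mirlet7f-1 (chr13:48537829-48537917) and Mirlet7d (chr13:48536012-48536114), all in exons of the long noncoding RNA 6720427I07Rik. On chromosome 15 the plus strand holds Mirlet7c-2 (chr15:85706603-85706697) and Mirlet7b (chr15:85707319-85707403), 621 bases apart in exons of the noncoding transcript Lncppara. On the plus strand of chromosome X, Mirlet7f-2 (chrX:151912346-151912428) and Mir98 (chrX:151913214-151913321) lie 785 bases apart in introns of Huwe1, a ubiquitin ligase gene. Mirlet7c-1 (chr16:77599657-77599750, plus strand) lies in an intron of Mir99ahg and 656 bases from Mir99a, and Mirlet7e (chr17:17830352-17830444, plus strand) lies in an intron of Spaca6 and 367 bases from Mir125a. Mirlet7a-2 (chr9:41536716-41536811, plus strand) is in an intron of the noncoding transcript 3110039I08Rik, 5211 bases from Mir100. Mirlet7g (chr9:106178840-106178927, plus strand) is in an intron of Wdr82, and Mirlet7i (chr10:122985640-122985724, minus strand) is in an exon of the transcribed pseudogene D630033A02Rik. Annotated miRNA genes on the opposite strand overlap Mirlet7e (Gm25927) and Mirlet7f-1 (Gm24111). A search of the hairpin strand for the letters GGAG between the 5p and 3p arms found them in 9 of these 12 hairpins, all but Mirlet7b, Mirlet7c-2 and Mir98. Among all 644 mouse hairpins with both arms annotated, 52 (8.1%) held these letters there. A match is a description of letters, not of a binding site.

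The deposited values are log2 normalized expression values on a scale that starts at 3.32, which is log2 of 10, and reaches 18.67 in every library. Among the top 100 ranks, 52 held an identical value in all 9 libraries and the largest spread at a rank was 0.138, so that in this range, where most member values lie, a value mostly states how high a miRNA ranked. Libraries differed more at the lowest ranks. Read totals per library were not in the table, so depth is unknown and no counting interval could be given. Between 240 and 349 miRNAs per library were above the lowest value. As sums, the brown and white fat lists separated brown from white depots in the direction of their labels. The summed level of 4 brown fat miRNAs was 17.35 to 18.84 on the log2 scale in BAT, 15.17 to 15.24 in SAT and 15.67 to 16.27 in VAT, and the white fat depot list summed to 4.32 to 6.14 in BAT, 11.81 to 12.25 in SAT and 10.54 to 11.13 in VAT. The brown sum was mostly miR-378a-3p. Alone, miR-365-3p did not separate them, at 11.05 in BAT 20 against 11.05 to 11.18 in VAT and 11.34 in SAT 19. Of the white list, miR-196a-5p was 3.96 in VAT 14 against 9.57 in VAT 17 and 9.16 in VAT 20. Several libraries stood apart by markers of other cells. The summed skeletal muscle list ran from 10.17 to 18.68 in BAT, from 9.93 to 10.83 in SAT and from 9.93 to 17.21 in VAT, highest within BAT and VAT in BAT 20 and VAT 20. Of its 6 miRNAs 4, 1 and 4 were above the lowest value, with miR-208b-3p and miR-499-5p at the lowest value throughout. The muscle sum was mostly miR-133a-3p. In BAT 15, BAT 20 and VAT 20, miR-133b-3p was 9.59, 10.82 and 9.76. In the same libraries miR-206-3p was 8.17, 8.23 and 3.63, and miR-1a-3p was 3.32, 7.38 and 3.83. The epithelial list reached 14.49 in SAT 14 against 8.36 to 8.54 in the other SAT libraries, with 1, 7 and 6 of its 7 miRNAs detected in at least 1 library of BAT, SAT and VAT. Within VAT it was highest in VAT 20, at 10.74 against 8.58 to 8.75 in VAT 14 and VAT 17. The leukocyte list reached 16.79 in SAT 20 against 13.70 to 13.94 in the other SAT libraries, and was 14.32 to 14.76 in BAT and 13.04 to 14.33 in VAT. In BAT, SAT and VAT 3, 5 and 5 of its 6 miRNAs were present, with miR-155-5p at the lowest value throughout. Its sum was mostly miR-150-5p, with means of 14.52, 14.71 and 13.12 in BAT, SAT and VAT. The means of miR-142-3p, miR-142-5p and miR-146a-5p were lowest in BAT, and miR-223-3p was at the lowest value in all BAT libraries. The endothelial list (2 of 2 present) was 11.53 to 12.23 in BAT against 13.28 to 13.64 in SAT and VAT, the red cell list (2 of 3 present, miR-144-3p at the lowest value throughout) was 17.68 in BAT against 14.86 to 15.87 in SAT and VAT, and the liver miRNA miR-122-5p was 6.59 to 10.08 in BAT and at most 4.14 elsewhere. The red cell sum was mostly miR-486-5p, with means of 17.68, 15.09 and 15.18 in BAT, SAT and VAT. The other red cell miRNA present, miR-451a, went the opposite way, with means of 9.26, 10.09 and 11.46. These lists moved with depot, and their part in the results below was not tested. In bulk tissue, fewer cells of a type and less RNA per cell cannot be told apart.

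The family took a large share of the table in both white depots. Summed over the 9 members on the unlogged scale, it made up 31.87% ± 0.07 (SD, n = 3) of all values in SAT, 17.1% ± 3.78 in VAT and 7.32% ± 1.42 in BAT. Single libraries ran from 5.87% to 8.70% in BAT, from 31.8% to 32.0% in SAT and from 12.8% to 19.8% in VAT, without overlap between depots. The lowest VAT share was that of VAT 20. These shares weigh the top ranks most and are a description with no test. The near-zero spread in SAT goes with let-7c-5p holding rank 1 and let-7a-5p rank 2 in all 3 SAT libraries, at the same value each time.

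**Figure D1:**
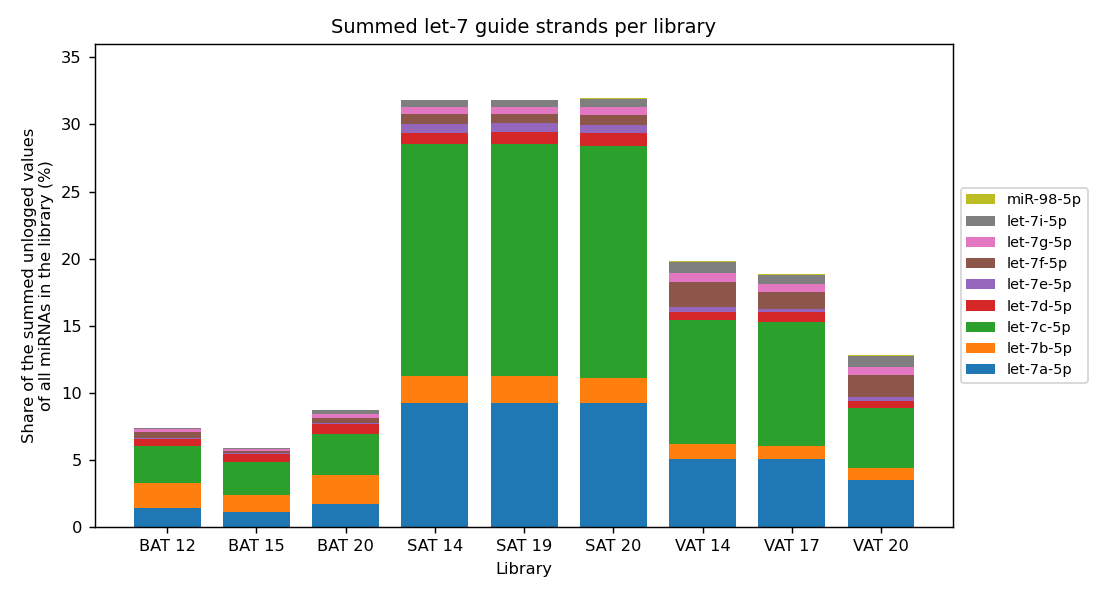
Summed unlogged values of the 9 let-7 guide strands as a percentage of the sum over all miRNAs (vertical axis) in each of the 9 libraries (horizontal axis), stacked by member. The SAT bars reach 31.8% to 32.0%, the VAT bars 12.8% to 19.8% and the BAT bars 5.87% to 8.70%, with let-7a-5p and let-7c-5p forming most of each bar.

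The make-up of the family also differed between depots. Of the family sum, let-7c-5p was the main part everywhere, at 38.2% ± 3.64 in BAT, 54.3% ± 0.12 in SAT and 43.5% ± 7.73 in VAT (SD, n = 3). Its single-base neighbour let-7a-5p came to 19.1% ± 0.38, 29.0% ± 0.07 and 26.7% ± 0.96. By contrast, let-7b-5p took 24.0% ± 2.31 of the family in BAT, second after let-7c-5p, but 6.13% ± 0.23 in SAT and 5.97% ± 0.95 in VAT. A similar lean towards BAT was seen for let-7d-5p, with 8.35% ± 0.86 in BAT against 2.79% ± 0.26 in SAT and 3.56% ± 0.63 in VAT. In VAT, let-7f-5p took 9.70% ± 3.18 of the family, against 4.32% ± 1.24 in BAT and 2.25% ± 0.19 in SAT. The least abundant member was miR-98-5p, at 0.14% ± 0.05, 0.07% ± 0.01 and 0.34% ± 0.15 in BAT, SAT and VAT. Together let-7a-5p and let-7c-5p made up 57.3% ± 3.85 of the family in BAT, 83.3% ± 0.19 in SAT and 70.2% ± 7.19 in VAT.

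By their mean log2 levels the 9 members fell into 3 depot orders. A first group of 3 members, let-7a-5p, let-7c-5p and let-7e-5p, was highest in SAT, lower in VAT and lowest in BAT. For let-7c-5p the log2 values were 16.02, 15.87 and 16.18 in BAT, 18.67 in each SAT library, and 17.77, 17.77 and 16.72 for VAT. For let-7a-5p they were 15.02, 14.75 and 15.30 in BAT, 17.77 in each SAT library, and 16.90, 16.90 and 16.38 for VAT. The 3 depots did not overlap for either of them, and VAT 20 was the lowest VAT library in both. For let-7e-5p, much less abundant, the values were 11.10, 10.80 and 10.93 for BAT, 14.02, 14.02 and 13.69 for SAT, and 12.98, 12.74 and 12.74 for VAT, again with no overlap.

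The other pattern led by a white depot, with VAT highest, SAT next and BAT lowest, was that of let-7f-5p, let-7g-5p, let-7i-5p and miR-98-5p. For let-7f-5p the values were 13.18, 12.004 and 13.32 for BAT, 14.18, 13.94 and 14.11 for SAT, and 15.47, 14.88 and 15.30 for VAT. For miR-98-5p, the rarest member, they were 8.04, 6.91 and 8.52 for BAT, 9.03, 9.19 and 8.96 for SAT, and 10.43, 9.93 and 10.61 for VAT. Both had 3 separate depots, and in both BAT 15 was the lowest of all 9 libraries. For let-7i-5p the values were 11.48, 10.99 and 12.81 for BAT, 13.63, 13.56 and 13.94 for SAT, and 14.24, 14.02 and 14.24 for VAT, so that BAT 20 stood over 1 log2 unit above the other two BAT libraries and still below SAT. For let-7g-5p they were 12.40, 11.51 and 12.59 for BAT, 13.51, 13.63 and 13.84 for SAT, and 14.05, 13.74 and 13.84 for VAT. Here SAT and VAT overlapped, and the only order beyond the spread was that of both white depots over BAT.

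The last pair, let-7b-5p and let-7d-5p, was highest in SAT and lowest in VAT. For let-7b-5p the values were 15.47, 14.88 and 15.70 for BAT, 15.56, 15.56 and 15.47 for SAT, and 14.75, 14.52 and 14.41 for VAT. VAT lay below both other depots, while SAT and BAT overlapped. For let-7d-5p the values were 13.74, 13.69 and 14.05 for BAT, 14.24, 14.41 and 14.52 for SAT, and 13.74, 14.05 and 13.63 for VAT. SAT lay above both other depots for this member, and BAT and VAT overlapped fully. The reference miRNA of the study for its PCR, miR-191-5p, had means of 15.92 ± 0.32, 16.09 ± 0.26 and 15.92 ± 0.32 in BAT, SAT and VAT (SD, n = 3).

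**Figure D2:**
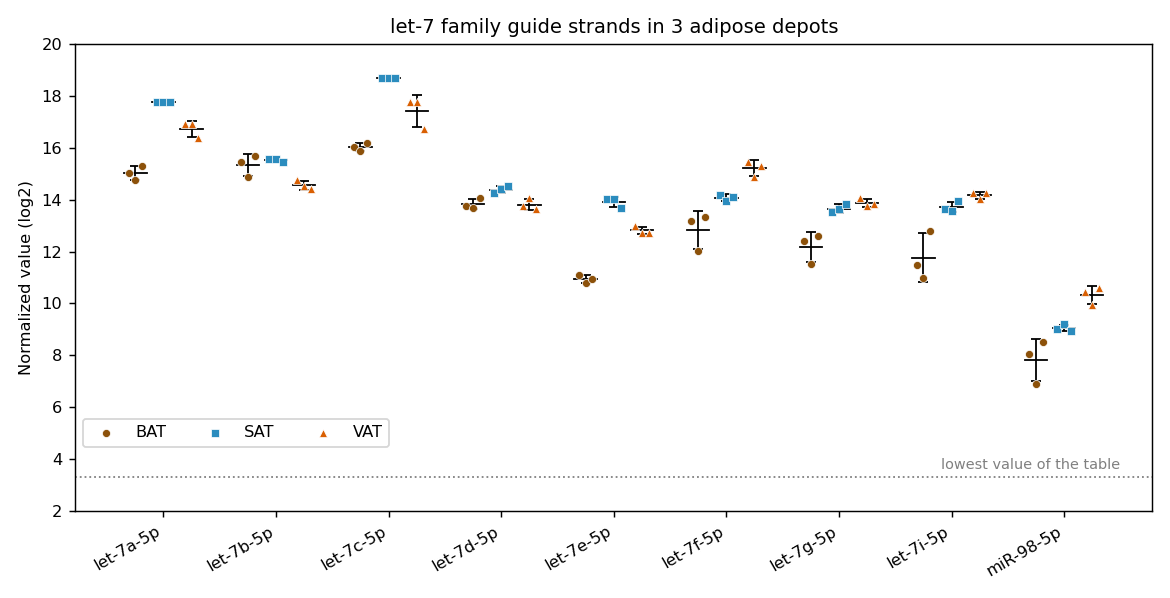
Normalized log2 values (vertical axis) of the 9 let-7 guide strands (horizontal axis), with 1 point per library, black lines for the depot mean and error bars of 1 SD (n = 3). BAT lies lowest for 7 members, SAT is highest for let-7a-5p (17.77) and let-7c-5p (18.67), and let-7b-5p and let-7d-5p differ least between depots.

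The first comparison asked how the white visceral depot differed from brown fat. In VAT, 7 of the 9 members were significantly higher than in BAT and 1 was lower by limma's moderated test with adjusted p under 0.05, where 39.4% of the 343 tested miRNAs were higher and 26.8% were lower. The median log2 fold change was 1.71 over the members and 0.40 over all tested miRNAs. Libraries of the depots did not overlap for 8 members, a pattern found in 72.0% of all tested miRNAs. Largest was the rise of miR-98-5p, by 2.50 on the log2 scale (SE 0.46, adjusted p = 0.00376), or 5.66-fold with a 95% confidence interval (CI) of 2.62 to 12.2. Close to it were let-7i-5p with a log2 fold change of 2.41 (SE 0.48, adjusted p = 0.00556) and let-7f-5p with 2.38 (SE 0.41, adjusted p = 0.00297). These were followed by let-7e-5p with 1.88 (SE 0.22, adjusted p = 0.000596), let-7a-5p with 1.71 (SE 0.27, adjusted p = 0.00218), let-7g-5p with 1.71 (SE 0.34, adjusted p = 0.00521) and let-7c-5p with 1.40 (SE 0.35, adjusted p = 0.0133). In the opposite direction, let-7b-5p was lower in VAT by a log2 fold change of -0.79 (SE 0.29, adjusted p = 0.0469), or 1.73-fold. For let-7d-5p the log2 fold change was -0.02 with a CI of -0.59 to 0.55 (adjusted p = 0.949).

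The call of let-7b-5p was lost in 12 of 18 alternative settings, among them leaving out BAT 12 (log2 fold change -0.73), BAT 20 (-0.62), VAT 14 (-0.89), VAT 17 (-0.77) or VAT 20 (-0.72), with adjusted p from 0.0677 to 0.118. The direction of let-7d-5p turned without BAT 20 (0.09), VAT 14 (0.01) or VAT 20 (0.07), all inside its CI. Without BAT 20 and VAT 20, each the library of its depot with the most of the muscle miRNA miR-133a-3p, all 7 members that were higher in VAT were still called, with a log2 fold change of 2.90 for let-7i-5p and 2.58 for let-7f-5p. This fit kept BAT 15, where miR-133a-3p was at 17.20 as in VAT 20, and the part of muscle RNA in these differences was not tested.

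SAT was then compared with the same BAT libraries, so this comparison and the last share the BAT group. Here 6 of the 9 members were significantly higher in SAT and 0 were lower by limma, against 22.4% of tested miRNAs higher and 18.1% lower. At an unadjusted p under 0.05, 8 members passed, all in the higher direction, as did 171 of the 343 tested miRNAs in either direction. The median log2 fold change was 1.49 over the members and 0.26 over all tested miRNAs, and depots did not overlap for 8 members against 52.5% of all tested. The members that led in SAT rose most. For let-7e-5p the log2 fold change was 2.96 (SE 0.14, adjusted p = 0.000215), or 7.80-fold with a CI of 6.02 to 10.1. The rise of let-7a-5p was 2.75 (SE 0.16, adjusted p = 0.000371), or 6.72-fold, and that of let-7c-5p was 2.65 (SE 0.11, adjusted p = 0.000128), or 6.29-fold. Both had an SD of 0 in SAT, where each held the same rank and value in every library. Their SE and adjusted p therefore take no spread from the SAT samples and may be too small. Because let-7c-5p already sat at the highest value of the scale in SAT, a higher level in SAT could not have been recorded. Smaller rises were those of let-7i-5p (1.95, SE 0.51, adjusted p = 0.0371), let-7g-5p (1.49, SE 0.32, adjusted p = 0.0202) and let-7d-5p (0.56, SE 0.14, adjusted p = 0.0342).

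For the remaining members the threshold was missed. The log2 fold change was 1.24 for let-7f-5p with a CI of 0.22 to 2.27 (adjusted p = 0.0600), and 1.24 for miR-98-5p with a CI of 0.08 to 2.40 (adjusted p = 0.0856), although neither overlapped between depots. For let-7b-5p it was 0.18 with a CI of -0.43 to 0.79 (adjusted p = 0.572), and -0.06 without BAT 15. Leaving out BAT 15 also brought let-7f-5p (0.83) and miR-98-5p (0.78) under the threshold, with adjusted p of 0.0134 and 0.0469, and without BAT 20 miR-98-5p passed as well (1.58, adjusted p = 0.0434). The calls of let-7a-5p, let-7c-5p and let-7e-5p held in all 17 alternatives, whereas those of let-7d-5p, let-7g-5p and let-7i-5p were lost in 11, 5 and 8 of them. Members called fell to 3 without SAT 19 or without SAT 20, and stood at 4 without SAT 14 or BAT 12, 6 without BAT 15 and 7 without BAT 20.

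**Figure D3:**
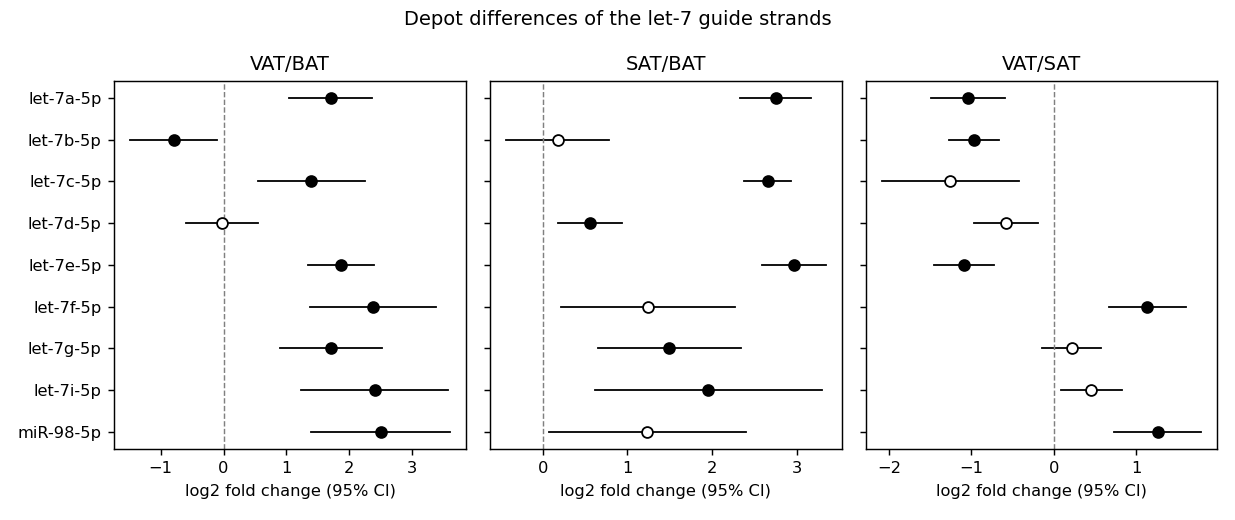
Log2 fold changes (horizontal axis) of the 9 members (vertical axis) in VAT/BAT, SAT/BAT and VAT/SAT, with 95% confidence intervals from limma, filled points having an adjusted p under 0.05. The members range from -0.79 to 2.50 in VAT/BAT, from 0.18 to 2.96 in SAT/BAT and from -1.25 to 1.26 in VAT/SAT, where they lie on both sides of 0.

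Between the white depots the family split. In VAT relative to SAT, 2 members were significantly higher and 3 were lower, against 8.45% of tested miRNAs higher and 7.58% lower. The median log2 fold change was -0.58 over the members and 0.10 over all tested miRNAs, and 8 members did not overlap between depots, against 39.4% of all tested. Higher in VAT were miR-98-5p with a log2 fold change of 1.26 (SE 0.21, adjusted p = 0.0276) and let-7f-5p with 1.14 (SE 0.18, adjusted p = 0.0276). Lower in VAT were let-7e-5p with -1.09 (SE 0.14, adjusted p = 0.0235), let-7a-5p with -1.04 (SE 0.17, adjusted p = 0.0276) and let-7b-5p with -0.97 (SE 0.12, adjusted p = 0.0235). For let-7a-5p the SE again takes no spread from SAT. The size of the difference of let-7c-5p was the largest of the negative ones, -1.25, but its spread in VAT left a CI of -2.09 to -0.42 (adjusted p = 0.0646). The other members that missed the threshold were let-7d-5p with -0.58 (CI -0.97 to -0.19, adjusted p = 0.0646), let-7i-5p with 0.45 (CI 0.08 to 0.82, adjusted p = 0.0966) and let-7g-5p with 0.22 (CI -0.14 to 0.58, adjusted p = 0.342).

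These calls depended on single libraries and on the processing, since 0 members were called by limma when every miRNA of the table was tested, when values were taken relative to miR-191-5p, or with the order number of the labels as a block (8, 6 and 8 with an unadjusted p under 0.05). With single libraries left out, 2 members were called without SAT 14, 0 without SAT 19, 1 without SAT 20, 2 without VAT 14, 6 without VAT 17 and 2 without VAT 20. Without SAT 19, 7 members and 104 of the 343 tested miRNAs had an unadjusted p under 0.05, and 0 of all 343 miRNAs passed the adjusted threshold there against 55 with all libraries. The direction of no member turned in this comparison under the 18 alternatives. Without VAT 20, where the muscle list was highest among the VAT libraries, let-7c-5p was called at a log2 fold change of -0.90 (adjusted p = 0.0255).

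Whether members differed from the family as a whole was tested on values relative to the mean of the 9 members in the same library. The family mean itself changed by 1.46 in VAT/BAT, 1.67 in SAT/BAT and -0.21 in VAT/SAT on the log2 scale. It was subtracted from every tested miRNA, so a miRNA outside the family can depart through its own change, through that of the family, or both. The shares of tested miRNAs given here and below therefore do not measure how often members depart from their own family. In VAT/BAT, 2 members departed from the family mean by limma, where 53.6% of tested miRNAs did. Both fell behind the family, let-7b-5p by -2.26 (adjusted p = 0.000867) and let-7d-5p by -1.48 (adjusted p = 0.0110). The relative log2 values of let-7f-5p (0.92, adjusted p = 0.0698), let-7i-5p (0.94, adjusted p = 0.0852) and miR-98-5p (1.04, adjusted p = 0.0596) missed the threshold. Without BAT 20 these 3 passed it and 5 members were called, while 1 was called without VAT 14 or without VAT 20.

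In SAT/BAT, 4 members departed from the family mean, against 53.6% of tested miRNAs. Above it were let-7e-5p by 1.29 (adjusted p = 0.0291) and let-7a-5p by 1.08 (adjusted p = 0.0385), and below it let-7b-5p by -1.49 (adjusted p = 0.0108) and let-7d-5p by -1.11 (adjusted p = 0.0408). A relative value of 0.98 for let-7c-5p had an adjusted p of 0.0617. Only 1 of the 9 members was called when BAT 12, SAT 14, SAT 19 or SAT 20 was left out, and 5 were called without BAT 15. That 1 member was let-7b-5p each time. With the family median as centre, let-7b-5p was no longer called (-1.09, adjusted p = 0.132) and the 1 member called was let-7e-5p (1.70, adjusted p = 0.0445).

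In VAT/SAT, 5 members departed from the family mean, against 11.7% of tested miRNAs. let-7f-5p and miR-98-5p were above it by 1.34 (adjusted p = 0.0231) and 1.47 (adjusted p = 0.0253). let-7a-5p, let-7b-5p and let-7e-5p were below it by -0.84 (adjusted p = 0.0417), -0.76 (adjusted p = 0.0413) and -0.88 (adjusted p = 0.0413). The count fell to 2 without SAT 14, 1 without SAT 19, 3 without SAT 20, 1 without VAT 14, and 0 without VAT 17 or VAT 20 by limma, where 8 and 7 members had an unadjusted p under 0.05.

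**Figure D4:**
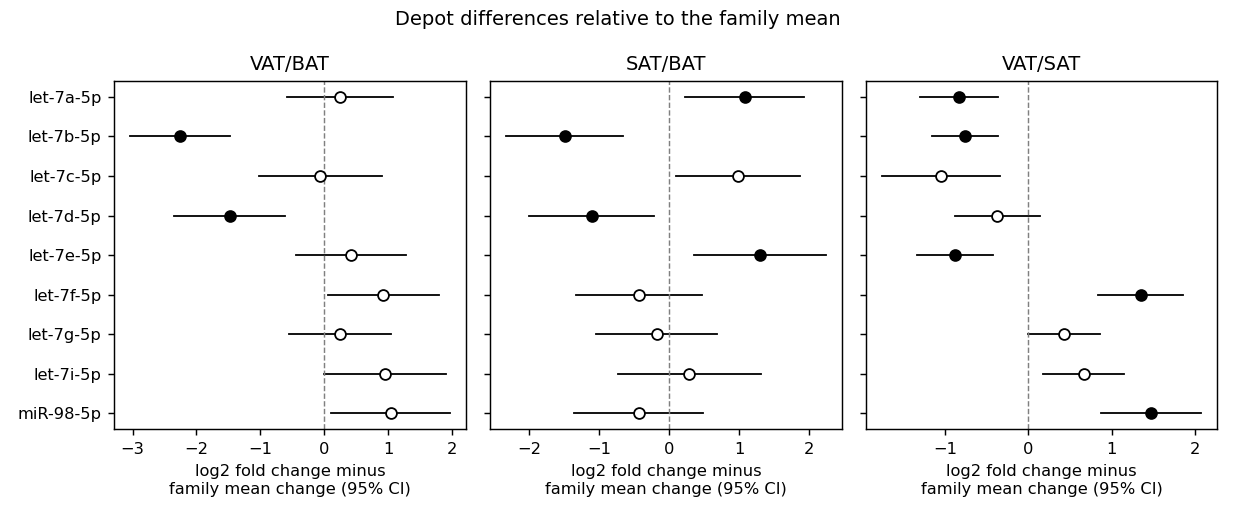
Log2 fold changes after the mean of the 9 members was subtracted in each library (horizontal axis), by member (vertical axis), with 95% confidence intervals and filled points for adjusted p under 0.05. let-7b-5p lies below the family in all 3 panels (-2.26, -1.49 and -0.76), while miR-98-5p and let-7f-5p lie above it in VAT/SAT (1.47 and 1.34).

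Members that share a genomic cluster could be compared inside each library, as the difference of their log2 values. However, let-7a-5p, let-7c-5p and let-7f-5p each also come from a hairpin on another chromosome. A difference that involves any of them does not compare the products of a single cluster alone. From the cluster on chromosome X, let-7f-5p minus miR-98-5p was 5.14, 5.09 and 4.80 for BAT, 5.15, 4.75 and 5.15 for SAT, and 5.03, 4.95 and 4.69 for VAT. These depots overlapped throughout, and the means differed by at most 0.13 between any pair of depots (exact two-sided permutation test, p from 0.5 to 0.8 in the 3 comparisons). In contrast, let-7b-5p minus let-7c-5p, which share the cluster on chromosome 15, was -0.55, -0.99 and -0.48 for BAT, -3.12, -3.12 and -3.21 for SAT, and -3.03, -3.25 and -2.31 for VAT. Thus let-7b-5p was within 1 log2 unit of let-7c-5p in each BAT library and at least 2.31 log2 units below it in each white depot library.

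From the chromosome 13 cluster, let-7a-5p minus let-7d-5p was 1.20 ± 0.12 for BAT, 3.38 ± 0.14 for SAT and 2.92 ± 0.22 for VAT (SD, n = 3), with 3 separate depots. let-7a-5p minus let-7f-5p was 2.19 ± 0.48 for BAT, 3.69 ± 0.12 for SAT and 1.51 ± 0.47 for VAT, where BAT and VAT overlapped. Beside its chromosome 17 neighbours, let-7e-5p was lower by 5.37 ± 0.43 than miR-99b-5p in BAT, by 1.53 ± 0.13 in SAT and by 2.30 ± 0.12 in VAT. Against miR-125a-5p it was lower by 5.75 ± 0.30, 2.60 ± 0.19 and 2.57 ± 0.14. On chromosome 16, let-7c-5p stood above miR-99a-5p by 6.30 ± 0.63 for BAT, 7.85 ± 0.34 for SAT and 5.77 ± 0.81 for VAT. With 3 libraries against 3 the exact two-sided permutation test cannot go below p = 0.1, and over the 21 tests of 7 pairs the smallest Benjamini-Hochberg adjusted value was 0.15, so no difference of a pair could pass 0.05 by this test.

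**Figure D5:**
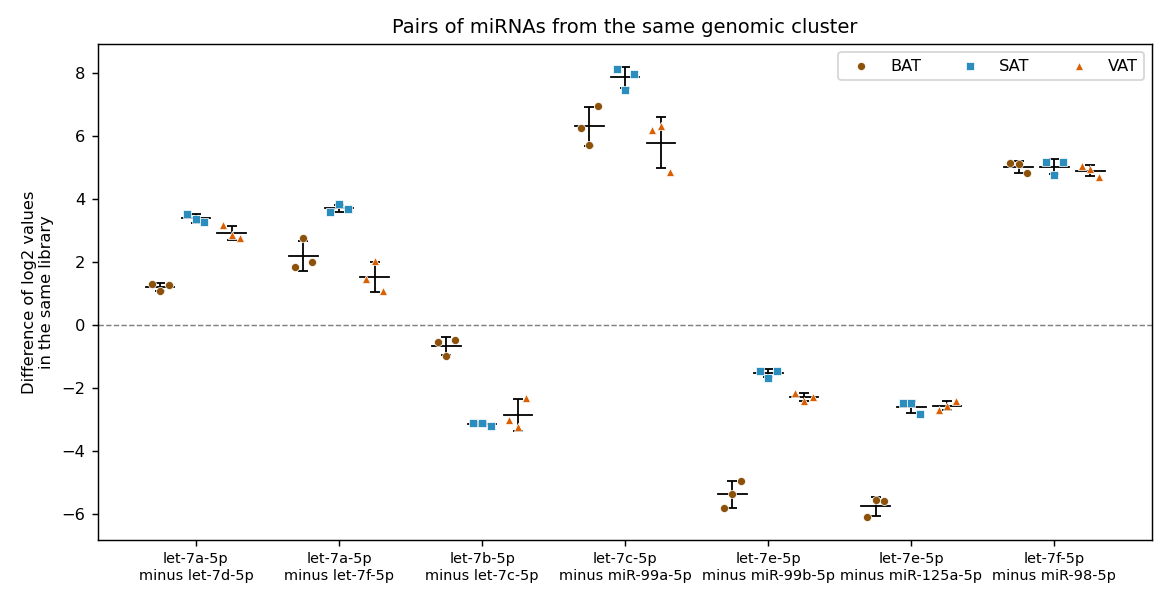
Differences of log2 values within a library (vertical axis) for 7 pairs of miRNAs from the same genomic cluster (horizontal axis), with 1 point per library, and the mean and 1 SD in black (n = 3). let-7f-5p minus miR-98-5p stays between 4.69 and 5.15 in all 9 libraries, while the let-7e-5p pairs lie lowest in BAT and let-7b-5p minus let-7c-5p is nearest 0 in BAT.

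The cluster neighbours of other families had their own depot differences. miR-99a-5p was higher in VAT than in BAT (log2 fold change 1.93, adjusted p = 0.00221) and in SAT than in BAT (1.10, adjusted p = 0.0477), the same direction as let-7c-5p. In VAT/BAT miR-100-5p was also higher (1.39, adjusted p = 0.0344), while miR-99b-5p and miR-125a-5p, which flank let-7e-5p, were lower (-1.20, adjusted p = 0.0161, and -1.31, adjusted p = 0.0109). For miR-125b-5p the log2 fold change was -0.07 (adjusted p = 0.801). In VAT/SAT only miR-125a-5p of these 5 passed the threshold (-1.12, adjusted p = 0.0235).

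Likeness of pattern was described by Pearson's r of log2 values over the 9 libraries, which fall into 3 depots of 3 and share ranked values, so r mostly states that 2 miRNAs order the depots alike. Among the members, let-7f-5p and miR-98-5p were most alike (r = 0.99), as were let-7a-5p and let-7e-5p (r = 0.99). let-7c-5p was most like let-7a-5p (r = 0.98) and let-7i-5p most like let-7g-5p (r = 0.97). The nearest miRNA to the remaining members was no member, namely miR-30c-2-3p for let-7b-5p (r = 0.95), miR-181a-5p for let-7d-5p (r = 0.94) and miR-21a-5p for let-7g-5p (r = 0.98). Likeness did not follow the number of differing bases in a simple way. The 4 pairs that differ by 1 base had r from 0.18 to 0.99, with let-7b-5p and let-7c-5p at 0.18, and the 11 pairs that differ by 3 bases ran from -0.49 to 0.99, with let-7f-5p and miR-98-5p at the top. Most like the mean of the family were miR-152-5p (r = 0.98), miR-340-5p and miR-298-5p (both r = 0.97), miR-224-5p (r = 0.96) and miR-21a-5p (r = 0.94). Of these, miR-21a-5p was 9.97, 8.65 and 10.29 for BAT, 12.89, 12.65 and 13.09 for SAT, and 13.84, 13.32 and 14.02 for VAT. In BAT, miR-224-5p never exceeded 3.32, the bottom of the scale. BAT values of miR-340-5p were 3.32, 3.32 and 5.09, and those of miR-298-5p 3.32, 3.32 and 4.91. For miR-224-5p, miR-340-5p and miR-298-5p, r therefore rests largely on BAT values at or near that floor against higher values in both white depots.

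The passenger strands, which are the opposite arms of the same hairpins, were mostly scarce. Of 12 in the table, 3 were at the lowest value in every library and 7 were tested. By limma 3 of the 7 were lower in VAT than in BAT, 2 were lower in SAT than in BAT and 1 was lower in VAT than in SAT. Of all 343 tested miRNAs, 26.8%, 18.1% and 7.58% were lower in these comparisons, and with 7 strands tested the counts say little about passenger strands as such. The 2 called higher in VAT than in BAT, let-7a-1-3p and let-7c-2-3p (named after their values were seen), were at the lowest value in every BAT and SAT library, entered the test only through VAT, and had the same values as each other in all 9 libraries, so they are not counted as separate results.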

How the data were processed

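Small RNA libraries from total RNA of 3 depots, 3 libraries each, were used. According to the methods of the study, reads were aligned to miRBase precursors (the submitters' processing notes name build mm10), normalized to usable reads per library, and 40 was added to each count. The authors deposited log2 values (described as RPKM) in 1 table. Its lowest value is 3.32, and libraries share nearly the same value at each of the top 100 ranks. Depth is unknown, so precision rests on the 3 libraries per depot. The study calls the libraries of a depot biological replicates. The labels do not name the mice, and p-values measure the spread of the deposited values between these samples, which the shared rank values can narrow.

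Depots were compared pairwise on the deposited log2 values of 6 libraries with limma 3.58.1 (lmFit, eBayes) in R 4.3.3, two-sided, over the 343 miRNAs that exceeded that lowest value in 3 or more of the 9 libraries, with Benjamini-Hochberg adjustment over all 343 and a threshold of 0.05. The same fit was run after subtracting the mean of the 9 members in each library. Exact permutation tests used scipy 1.17.1. The fit was tested on simulated normal values, which lacked the shared rank values of the real data, so their effect was not tested. Offsets, filters, scalings, blocks and each library left out were tried as alternatives. Named miRNAs were the 9 members, 5 cluster neighbours, miR-191-5p, passenger strands by counts, and the miRNAs with the highest r to the family mean or to a member. Members and lists were chosen with earlier results of these data known. Sequences and hairpins came from RefSeq (GRCm38.p6), and overlapping genes from GENCODE on the same build.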

Additional observations from a re-analysis of the deposited data

How the results depend on the processing

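Testing all 1251 miRNAs, of which 839 were at the lowest value in every library, lowered the members called from 8 to 2 in VAT/BAT, from 6 to 3 in SAT/BAT and from 5 to 0 in VAT/SAT (8 with an unadjusted p under 0.05), and all miRNAs called from 227 to 128, from 139 to 74 and from 55 to 4. Keeping only the 172 miRNAs above the median by mean value left 120 called in VAT/BAT among fewer tested. Relative to miR-191-5p, 3 members were called in SAT/BAT and 0 in VAT/SAT (6 with an unadjusted p under 0.05), with 2 of all miRNAs in VAT/SAT. In VAT/SAT, fitting all 9 libraries together called 3 members and 30 miRNAs, and a test without moderated variances 2 and 13. The cause was not tested. let-7d-5p in VAT/BAT was 0.18 without BAT 20 and VAT 20, a choice made after seeing the data. With the family median as centre, members departing from the family numbered 1 in each comparison with BAT, and let-7c-5p (0.054 in VAT/BAT) and let-7g-5p (0.22 in SAT/BAT) changed direction. With the mean of the other 8 members as centre, 4 departed in VAT/BAT.

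Leaving out 1 library at a time gave 3 to 7 members called in SAT/BAT, 0 to 6 in VAT/SAT, and 0 to 49 of all miRNAs in VAT/SAT. Members departing from the family mean numbered 1 to 5 in VAT/BAT, 1 to 5 in SAT/BAT and 0 to 3 in VAT/SAT. The log2 fold change ran from -0.14 to 0.093 for let-7d-5p in VAT/BAT, from -0.056 to 0.35 for let-7b-5p in SAT/BAT, and from -0.26 to 0.23 for let-7c-5p relative to the family in VAT/BAT. In VAT/BAT the calls of let-7a-5p and let-7e-5p held in all 18 alternatives.

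A fixed replicate block by the order number of the labels left 0 members and 0 of all miRNAs called in VAT/SAT by limma (8 and 105 with an unadjusted p under 0.05), 7 members in VAT/BAT and 5 in SAT/BAT. A random replicate block by library number, possible only in VAT/SAT where depots share a pair of numbers, called 5 members and 55 miRNAs. Deviations of libraries with the same order number correlated from -0.17 to 0.36 and those with the same library number from -0.14 to 0.27. Pairs that shared neither number ran from -0.48 to 0.23. With 3 libraries per depot these correlations cannot tell whether samples came from the same mice. The labels do not say so either, and the main fits used no pairing.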

Other observations

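The balance of guide and passenger strand was examined for the 4 hairpins that are encoded once and had both strands tested, a set chosen after the values were seen. In BAT the passenger strand let-7d-3p was more abundant than the guide, the log2 difference of let-7d-5p minus let-7d-3p being -0.37, -0.33 and -1.11 for BAT, 1.59, 1.32 and 1.54 for SAT, and 1.54, 1.85 and 1.63 for VAT. let-7d-3p itself was 14.11, 14.02 and 15.16 for BAT, 12.65, 13.09 and 12.98 for SAT, and 12.20, 12.20 and 12.004 for VAT, so that it was highest in the depot where the family of guides was lowest. For the other hairpins the guide exceeded the passenger in every library, but the difference was again smallest in BAT. It was 6.09 ± 0.43 for BAT, 8.30 ± 0.18 for SAT and 7.35 ± 0.22 for VAT for let-7b, 3.30 ± 0.54, 7.21 ± 0.75 and 6.63 ± 0.14 for let-7e, and 4.45 ± 1.19, 6.45 ± 0.67 and 7.30 ± 0.15 for let-7i (SD, n = 3). None of the 4 differences overlapped between BAT and either white depot. For let-7i the gap to SAT was narrow, with 5.81 in BAT 20 and 5.91 in SAT 19. By an exact two-sided permutation test each of the 8 comparisons of BAT with a white depot had p = 0.1, the smallest that 3 libraries against 3 allow, and an adjusted value of 0.133 over 12 tests. Levels of single miRNAs did not overlap in 72.0% of those tested in VAT/BAT and 52.5% in SAT/BAT. The share for strand differences of other hairpins was not examined.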
